A study of Felis catus with 8 samples.

Results

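Amino acids cross the outer membrane of liver cells through carriers of a few solute carrier (SLC) families, and 7 of these families, SLC1A, SLC3A, SLC6A, SLC7A, SLC36A, SLC38A and SLC43A, were followed here through 4 diets. Members were the probe sets, small groups of probes on the array, annotated to exactly 1 gene whose symbol carries one of these prefixes, apart from SLC6A6. This gave 848 probe sets of 257101 on the array, and they named 59 genes of the 17910 tested. Of these probe sets, 425 lay above the median of all probe sets (log2 2.43) and were used. Each of the 59 genes was thus measured by 1 to 15 probe sets, with a median of 7. A gene's probe sets counted below are these kept ones. The genes fell into SLC1 with 7, SLC38 with 11, SLC7 with 14, SLC3 with 2, SLC43 with 3, SLC36 with 4 and SLC6 with 18. Both SLC7A6OS, which lies on the strand opposite SLC7A6, and SLC6A10P, a pseudogene, carry a family prefix without being carriers, which leaves 57 carriers. Another 41 probe sets name a member together with a second gene and were left out, 26 of them shared by SLC6A8 and its near copy SLC6A10P, so values of both are uncertain.

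Monosodium glutamate (MSG) is the sodium salt of glutamate, and glutamate enters cells through SLC1 carriers that use the sodium gradient to concentrate it. Glutamine, into which liver converts part of its glutamate, moves through SLC38 carriers and through exchangers of SLC1 and SLC7. Many SLC7 carriers are light chains that reach the membrane only when bound to a heavy chain, SLC3A1 or SLC3A2. In the liver, hepatocytes near the portal vein take up and break down amino acids, and those around the central vein take up glutamate and make glutamine. Expression of several of these carriers is known to follow amino acid supply through the transcription factor ATF4.

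The samples were livers of 9-month-old male cats (Felis catus) from 4 diets, with 2 arrays for each. Control cats ate standard chow, and the MSG diet was that chow with 1.125% MSG added. A diet with 8.6% trans fat and 24% HFCS, which stands for high-fructose corn syrup, is called trans-fat/HFCS, and the combined diet added 1.125% MSG to it. Feeding of the dams began 3 weeks ahead of mating and lasted through nursing, and their sons were weaned onto the same food, so maternal and own feeding cannot be told apart in any group. Each array carries the number of a different cat, 4 to 5 livers per diet went into RNA extraction, and neither litters nor pooling are stated, so p-values measure the spread between these arrays.

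Median intensity per array lay between 5.25 and 5.28, and 0 pairs of arrays were identical. Correlations across genes were 0.946 to 0.968 within a diet and 0.917 to 0.956 between diets. Of 19 hepatocyte markers 18 were measured, their mean log2 intensity was 7.76 to 7.94 on every array, and none changed with any diet in the fit used here. The pair of trans-fat/HFCS arrays stood apart most in skeletal muscle markers. The mean log2 intensity of 20 of these was 5.30 and 5.28 there and 3.77 to 3.83 on the other 6 arrays. Their summed intensity was 1016 to 1024 on those arrays and 323 to 342 on the others. The 10 macrophage and Kupffer cell markers measured were also highest on that pair, at a mean log2 of 4.57 beside 4.22 to 4.41. So were the 3 erythroid markers measured, with a sum of 57.7 to 60.2 beside 42.4 to 56.5. The part of these lists in the carriers' values was not tested. What passed for trans fat and HFCS is therefore given below with and without these arrays, and the effect of MSG also on chow alone. Cat RNA was read with human probes, so a sequence difference under a probe set can alter its value without any difference in RNA amount. For that reason, and because probes differ in brightness, only differences between diets are compared below, never levels between genes.

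The first question was whether added MSG moved these genes, taken as the MSG main effect, the mean of the MSG difference on chow and on the trans-fat/HFCS base (4 arrays with MSG against 4 without). None of the 59 genes passed limma's moderated test with Benjamini-Hochberg adjustment over all genes at an adjusted p of 0.05, where 0.329% of all genes passed. At an unadjusted p under 0.05 there were 6 members, or 10.2%, beside 7.91% of all genes. The median log2 change over the 59 was 0.02, beside 0.00 over all genes, with 31 genes higher and 28 lower, and 56 of 59 changes were under 0.5 in size. The 95% interval of the change stayed within 2-fold in either direction for 56 genes, the exceptions being SLC3A1, SLC7A6 and the pseudogene SLC6A10P. Some members read close to the filter at log2 2.43, where a narrow interval limits a change in RNA less firmly. Among them were SLC1A1, SLC7A11 and SLC6A16, whose brightest probe sets averaged 2.65, 2.71 and 2.86. Of 425 probe sets, 0 passed in their own fit, where 0.163% of all probe sets did, and 31 had an unadjusted p under 0.05 (6.83% of all probe sets). In bulk liver, fewer cells of a type and less RNA per cell cannot be told apart in these or any later values.

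**Figure D1:**
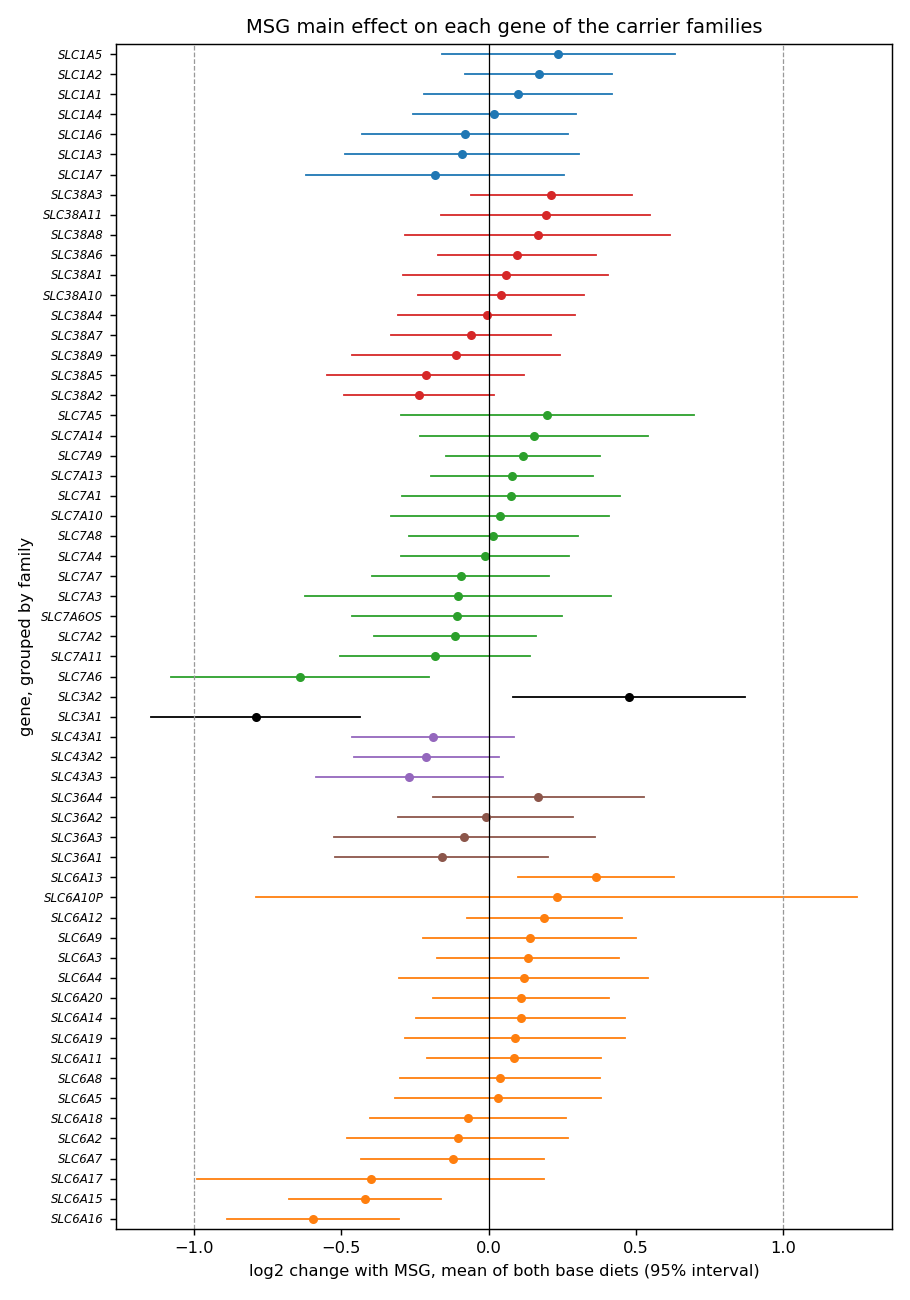
Log2 change with MSG (horizontal axis, mean of both base diets) for each of the 59 genes, grouped and coloured by family; points are limma estimates from 8 arrays, lines their 95% intervals, and dashed lines mark a 2-fold change. Most points lie close to 0, and SLC3A1 at -0.79 and SLC3A2 at 0.48 are the ends of the range.

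Among the SLC1 carriers of glutamate and aspartate, the glial and hepatocyte carrier SLC1A2 read log2 4.30 and 4.40 in control, 4.33 and 4.39 with MSG, 4.34 and 4.44 with trans-fat/HFCS, and 4.70 and 4.73 on the combined diet. Only the combined arrays were high, and they did not overlap the other 6. Its MSG main effect was 0.17 ± 0.11 (log2, standard error; adjusted p = 0.79). SLC1A1, a carrier of glutamate and cysteine, read 2.78 and 2.46 in control, 2.64 and 2.50 with MSG, 2.32 and 2.60 with trans-fat/HFCS, and 2.54 and 2.87 on the combined diet, with all 4 diets overlapping. Its brightest probe set averaged 2.65, close to the filter at 2.43. SLC1A3, a further glutamate carrier, read 4.90 and 5.26 in control, 4.67 and 4.77 with MSG, 4.30 and 4.34 with trans-fat/HFCS, and 4.13 and 4.88 on the combined diet. The control arrays were the highest for SLC1A3, and its combined arrays lay far apart. The changes with MSG were 0.10 for SLC1A1 and -0.09 for SLC1A3, both with an interval that holds 0.

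The SLC1 exchangers carry neutral amino acids. SLC1A5, which exchanges glutamine, read 5.23 and 5.34 in control, 5.41 and 5.76 with MSG, 4.55 and 4.92 with trans-fat/HFCS, and 5.24 and 4.59 on the combined diet. SLC1A4, which exchanges serine, alanine and cysteine, read 4.05 and 4.02 in control, 3.92 and 3.98 with MSG, 3.50 and 3.16 with trans-fat/HFCS, and 3.43 and 3.48 on the combined diet. In both genes the diets with trans fat and HFCS were the lower ones, without overlap for SLC1A4 and with a slight overlap for SLC1A5. Their MSG main effects were 0.24 ± 0.18 (adjusted p = 0.81) for SLC1A5 and 0.02 ± 0.12 (adjusted p = 0.99) for SLC1A4. The SLC1A5 values leaned on 1 of its 6 probe sets, which stood at 1.27 with MSG and -3.97 with trans fat and HFCS. Without it the median change of its probe sets was 0.08 with MSG and 0.09 with trans fat and HFCS.

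**Figure D2:**
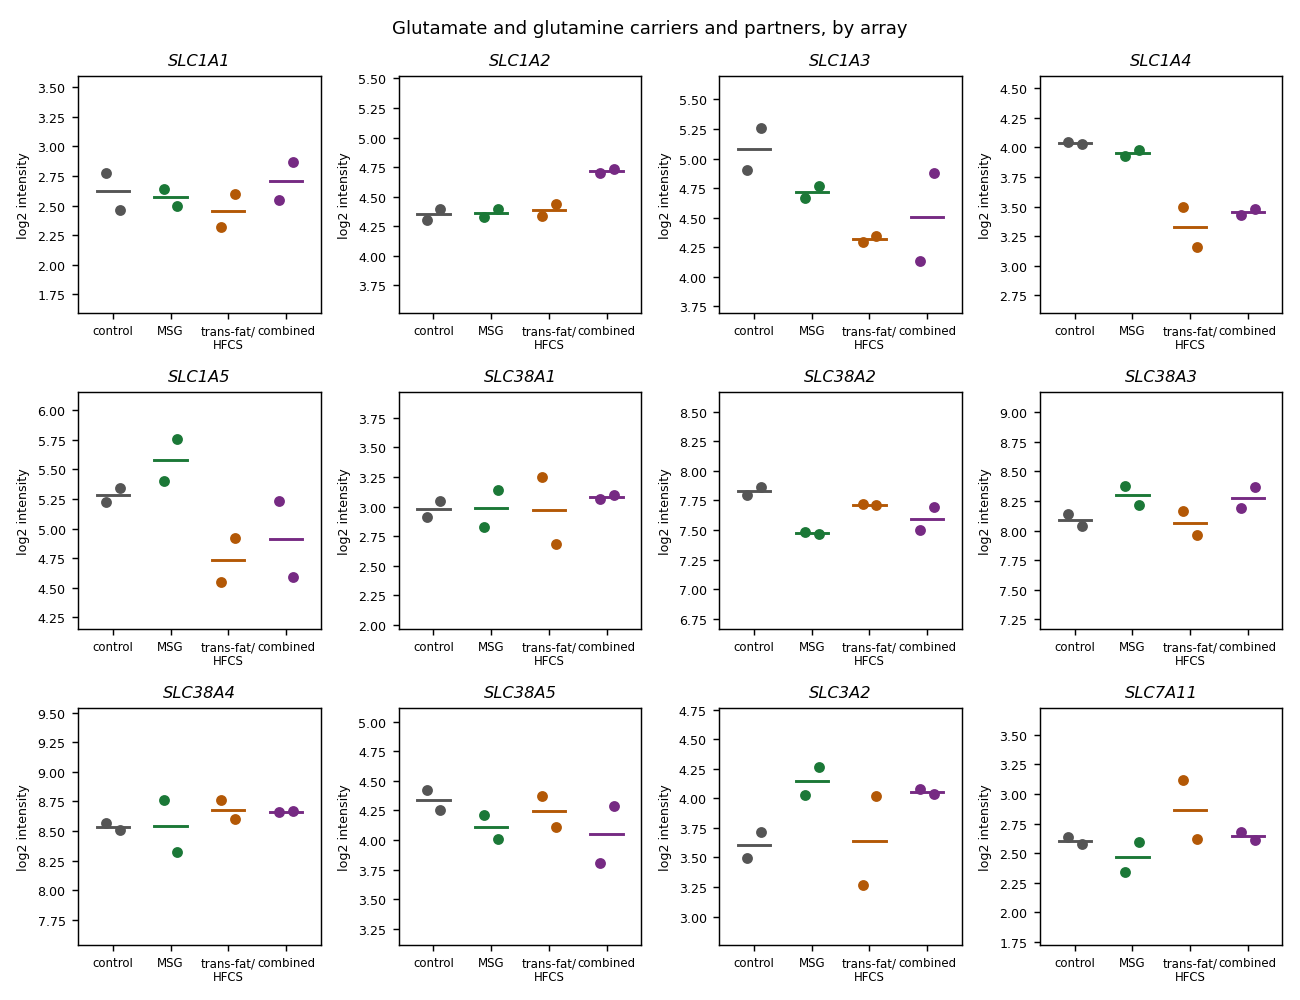
Log2 intensity of 12 carriers and partners of glutamate and glutamine (vertical axis, each panel spanning 2 log2 units) on each of 8 arrays (points) by diet, with the mean of the 2 arrays as a line. SLC38A2 is lower and SLC3A2 higher on the MSG arrays than in control, while SLC1A4 divides the 4 arrays with trans fat and HFCS from the 4 without.

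The SLC38 family holds the sodium-coupled carriers of glutamine, alanine and asparagine. SLC38A3, the main glutamine carrier of hepatocytes, read 8.14 and 8.03 in control, 8.38 and 8.22 with MSG, 8.16 and 7.96 with trans-fat/HFCS, and 8.19 and 8.36 on the combined diet. All 4 arrays with MSG lay above all 4 without, by a mean of 0.21 ± 0.12 (adjusted p = 0.74). Of its 15 kept probe sets, from 18 in all, 13 were higher. SLC38A2, a carrier of small neutral amino acids that cells raise when amino acids run short, read 7.80 and 7.87 in control, 7.49 and 7.47 with MSG, 7.72 and 7.71 with trans-fat/HFCS, and 7.50 and 7.70 on the combined diet. Here the 4 arrays with MSG lay below the 4 without, at a mean change of -0.24 with a 95% interval from -0.49 to 0.02 (adjusted p = 0.67), and 12 of 14 probe sets were lower. Neither gene passed the test, and both changes were small beside the step of 1 log2 unit that makes 2-fold.

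SLC38A4, the hepatic carrier of neutral and cationic amino acids, read 8.57 and 8.51 in control, 8.76 and 8.32 with MSG, 8.76 and 8.60 with trans-fat/HFCS, and 8.66 and 8.67 on the combined diet. Its 95% interval for the MSG main effect was -0.31 to 0.29, which limits only the mean over both bases. On chow the interval was -0.42 to 0.43, and on the trans-fat/HFCS base -0.44 to 0.41. SLC38A1, a glutamine carrier of many tissues, ranged from 2.68 to 3.25 over the 8 arrays, and SLC38A5, which moves glutamine both ways, from 3.81 to 4.42. With MSG they differed by 0.06 ± 0.15 (adjusted p = 0.96) and -0.21 ± 0.15 (adjusted p = 0.79). All 7 kept probe sets of SLC38A5, from 17 in all, were lower, and 6 of the 12 kept of SLC38A1, from 20. The lysosomal members SLC38A7, a glutamine exporter, and SLC38A9, an arginine sensor for mTORC1, differed by -0.06 and -0.11, neither past the test. Over the 11 SLC38 genes the MSG changes ran from -0.24 to 0.21, with 6 higher and 5 lower.

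Among the 59 genes SLC3A1 and SLC7A6 had the MSG main effects of largest size, neither past the test. SLC3A1, the heavy chain of the cystine and dibasic amino acid carrier of kidney and gut, read 4.20 and 4.73 in control, 3.61 and 3.28 with MSG, 3.51 and 3.73 with trans-fat/HFCS, and 3.15 and 2.97 on the combined diet. On each base the arrays with MSG lay below those without, although MSG on chow overlapped trans-fat/HFCS. The MSG main effect was -0.79 ± 0.16 with an adjusted p of 0.11, and its 3 probe sets ran from -1.17 to -0.55. Its light chain SLC7A9 differed by 0.12 ± 0.12 (adjusted p = 0.87). SLC3A2, the heavy chain shared by most light chains, read 3.49 and 3.72 in control, 4.03 and 4.26 with MSG, 3.26 and 4.02 with trans-fat/HFCS, and 4.08 and 4.03 on the combined diet. All 4 arrays with MSG exceeded all 4 without, by 0.48 ± 0.17 (adjusted p = 0.54). Its 7 kept probe sets, from 17 in all, were all higher. The margin was thin, since 1 trans-fat/HFCS array, at 4.02, lay just under the lowest array with MSG, at 4.03.

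Of the light chains that pair with SLC3A2, SLC7A6, which exchanges arginine for glutamine, read 3.84 and 3.96 in control, 3.16 and 3.28 with MSG, 3.77 and 3.88 with trans-fat/HFCS, and 2.75 and 3.70 on the combined diet. The arrays with MSG lay below those without, by -0.64 ± 0.19 (adjusted p = 0.42), and the second combined array was close to the diets without MSG. Leaving out that array gave -0.88 with an adjusted p of 0.043, so that array decided the side of the threshold on which SLC7A6 lay. SLC7A6OS, which overlaps it on the other strand, differed by -0.11. SLC7A5, the importer of large neutral amino acids, read 3.10 and 3.13 in control and 3.49 and 3.81 with MSG, but 3.01 and 3.73 with trans-fat/HFCS and 3.65 and 2.81 on the combined diet. SLC7A11, which exports glutamate for cystine, ranged from 2.34 to 3.12 with no separation by diet, and its MSG main effect was -0.18 ± 0.14 (adjusted p = 0.83). Its brightest probe set averaged 2.71, close to the filter at 2.43. SLC7A2, the cationic amino acid carrier of hepatocytes, read between 8.22 and 8.64 on all 8 arrays and differed by -0.11 ± 0.12 with MSG. Over the 14 SLC7 genes, 7 were higher and 7 lower and 13 of the changes were under 0.5 in size.

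All 3 SLC43 genes had small negative values with MSG. SLC43A1 and SLC43A2, facilitated carriers of branched-chain amino acids, and SLC43A3, known as a carrier of purine bases, stood at -0.19, -0.21 and -0.27, and none passed the test. SLC43A2 read 4.54 and 4.50 in control, 4.25 and 4.34 with MSG, 4.37 and 4.36 with trans-fat/HFCS, and 4.16 and 4.18 on the combined diet. Its 4 arrays with MSG lay below the 4 without, but the adjusted p was 0.71. The SLC36 carriers, which couple amino acids to protons, differed by -0.16 to 0.17, and SLC36A4, the member with the brightest probe set, by 0.17 ± 0.16 (adjusted p = 0.86).

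SLC6 carriers move neurotransmitters, osmolytes and neutral amino acids with sodium and chloride. SLC6A13, a carrier of GABA and taurine known from mouse liver, read 5.75 and 5.98 in control, 6.21 and 6.06 with MSG, 5.31 and 5.35 with trans-fat/HFCS, and 5.81 and 5.77 on the combined diet. On each base the arrays with MSG lay above those without, by a mean of 0.36 ± 0.12 (adjusted p = 0.45), and 11 of 12 probe sets were higher. Its neighbour on the cat gene map, SLC6A12, the betaine and GABA carrier, differed by 0.19 ± 0.12 (adjusted p = 0.77), with its 4 arrays with MSG, 4.78 to 5.06, above the 4 without, 4.57 to 4.74. SLC6A11, a GABA carrier and the SLC6 gene with the brightest probe set, ranged from 5.74 to 6.33 and differed by 0.09 ± 0.13.

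SLC6A15, a sodium-coupled carrier of branched-chain amino acids and proline known mainly from brain, read 4.36 and 4.27 in control, 4.32 and 4.28 with MSG, 5.37 and 5.41 with trans-fat/HFCS, and 4.47 and 4.66 on the combined diet. SLC6A16, a family member whose substrate is not known, read 2.56 and 2.79 in control, 2.27 and 2.45 with MSG, 2.98 and 3.29 with trans-fat/HFCS, and 2.27 and 2.25 on the combined diet. Its brightest probe set averaged 2.86, close to the filter at 2.43. For both genes the trans-fat/HFCS arrays were the highest, and these are also the arrays with raised muscle markers, whose part in these values was not tested. The MSG main effect was -0.42 ± 0.11 (adjusted p = 0.33) for SLC6A15 and -0.60 ± 0.13 (adjusted p = 0.16) for SLC6A16. Without the trans-fat/HFCS base, on chow alone, the changes were -0.02 ± 0.16 for SLC6A15 and -0.32 ± 0.18 for SLC6A16. In that list of 20 muscle markers, 10 fell with MSG as a main effect and 0 changed with MSG on chow.

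Across the 59 genes, the arrays with and without MSG did not overlap in 7, or 11.9%, beside 2.68% of all genes. These were SLC38A3, SLC3A2 and SLC6A12 with MSG above, and SLC38A2, SLC43A2, SLC6A16 and SLC7A6 with MSG below. None of the 7 passed the adjusted test, and 5 of the 7 changes were under 0.5 in size.

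The MSG effect was then taken on each base diet alone, with 2 arrays against 2. On chow, 0 of 59 genes passed (0.296% of all genes) and 2 had an unadjusted p under 0.05 (7.64% of all genes). These were SLC3A1 at -1.02 ± 0.22 (adjusted p = 0.18) and SLC7A6 at -0.68 ± 0.27 (adjusted p = 0.60). SLC38A2 at -0.36, SLC3A2 at 0.54, SLC7A5 at 0.53 and SLC6A13 at 0.27 had the next smallest p in their direction. On the trans-fat/HFCS base, 0 of 59 passed (0.179% of all genes) and 7 had an unadjusted p under 0.05 (8.98% of all genes). SLC6A15 at -0.82 ± 0.16 (adjusted p = 0.15) and SLC6A16 at -0.87 ± 0.18 (adjusted p = 0.17) came first, followed downward by SLC3A1 at -0.56. Upward came SLC6A13 at 0.46, SLC38A6, a member with uncertain substrates, at 0.45, and SLC7A14, a lysosomal family member, at 0.57. This base holds the arrays with raised muscle markers, and 13 of those 20 markers passed as lower with MSG here. Their part in the values on this base was not tested. The 2 effects share no array. Across the 59 genes their Pearson correlation was 0.24 and their Spearman correlation 0.11, beside -0.02 and -0.05 over all genes. The same sign was found in 31 of 59 (52.5%, beside 48.0% of all genes). These values describe genes that are not independent.

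**Figure D3:**
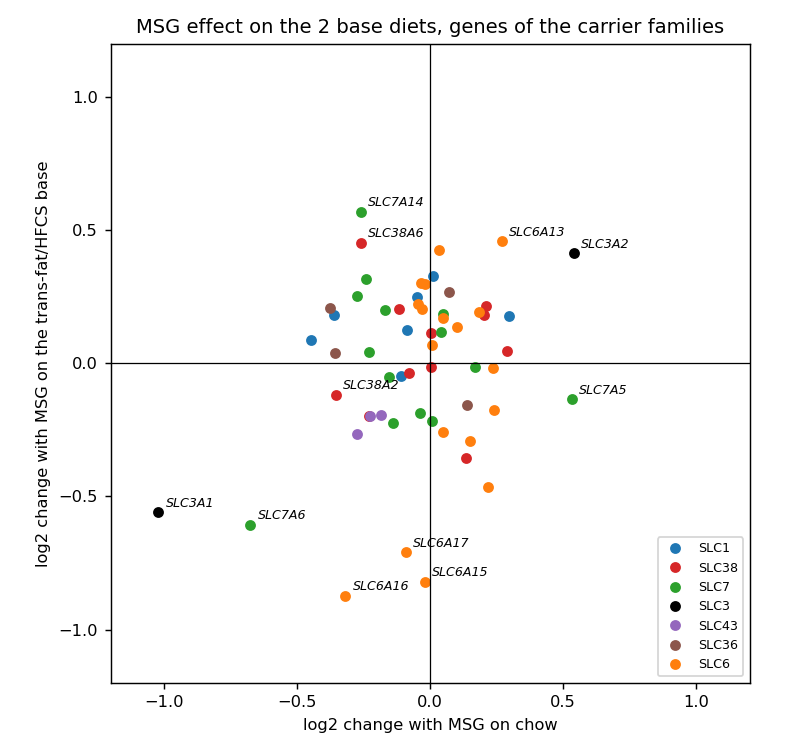
Log2 change with MSG on chow (horizontal axis, MSG minus control) against that on the trans-fat/HFCS base (vertical axis, combined minus trans-fat/HFCS) for the 59 genes, coloured by family. SLC3A1 and SLC7A6 are negative and SLC3A2 and SLC6A13 positive on both bases, while SLC6A15 lies near 0 on chow and at -0.82 on the other base.

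Whether MSG acted differently on the bases was tested as the interaction, in which the MSG change on chow is subtracted from that on the trans-fat/HFCS base. None of the 59 genes passed (0.151% of all genes), and 4 had an unadjusted p under 0.05 (9.07% of all genes). SLC6A15 at -0.80 ± 0.23 (adjusted p = 0.35), the proline carrier SLC6A7 at -0.68 ± 0.27 (adjusted p = 0.52) and SLC6A16 at -0.55 ± 0.26 (adjusted p = 0.58) were the most negative by p. SLC38A6 at 0.71 ± 0.24 (adjusted p = 0.43), SLC7A14 at 0.83 ± 0.34 (adjusted p = 0.52) and SLC7A4 at 0.53 ± 0.25 (adjusted p = 0.58) were the most positive. SLC38A6 read 5.48 and 5.47 in control, 5.21 and 5.22 with MSG, 4.85 and 5.02 with trans-fat/HFCS, and 5.27 and 5.52 on the combined diet. MSG thus stood below control on chow and the combined diet above trans-fat/HFCS, with no overlap in either pair. Of the probe sets 0 passed, where 0.0521% of all probe sets did, and 28 had an unadjusted p under 0.05 (7.87% of all probe sets). The interaction was the least precise contrast: its interval reached beyond 2-fold in 23 of 59 genes. It also takes in the trans-fat/HFCS arrays, and 8 of the 20 muscle markers passed as lower for it. The part of these markers was not tested.

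More genes passed for trans fat and HFCS than for MSG, a few carriers among them. For this main effect (4 arrays with trans fat and HFCS against 4 without), 5 of 59 genes passed, 8.47%, beside 7.66% of all genes, so the share was near the background. SLC1A6, SLC6A15 and SLC38A7 rose, as did 4.44% of all genes, and SLC1A4 and SLC3A1 fell, as did 3.22% of all genes. The median change over the 59 was -0.01, beside 0.02 over all genes. Arrays with and without trans fat and HFCS did not overlap in 5 of the 59, or 8.47%, beside 15% of all genes. These 5 were SLC1A4, SLC1A6, SLC38A7, SLC6A15 and the opposite-strand gene SLC7A6OS, which did not pass (0.29, adjusted p = 0.29). Of the 20 muscle markers, 13 passed as higher with trans fat and HFCS, and marker lists of other cells also differed. The summed intensity of 6 neutrophil markers was 82.2 to 113 on the 4 arrays with trans fat and HFCS and 123 to 137 on the others, with 1 marker that fell, and that of 6 nerve markers was 66.6 to 78.6 and 58.0 to 63.6, with 1 that rose. The 10 stellate cell markers summed to 214 to 225 on the combined arrays and 273 to 306 on the other 6. Their part in the carriers' values was not tested.

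SLC1A6, a glutamate carrier known from the Purkinje cells of the cerebellum, read 4.41 and 4.43 in control, 4.15 and 4.47 with MSG, 5.20 and 5.62 with trans-fat/HFCS, and 5.16 and 5.56 on the combined diet. The 4 arrays with trans fat and HFCS lay above the other 4 with a wide gap, and the gene rose by 1.02 ± 0.15, or 2.03-fold (adjusted p = 0.0073). With combined set against MSG alone, leaving out the trans-fat/HFCS arrays, the change was 1.05 (adjusted p = 0.056). SLC1A6 passed whichever single array was left out, at 0.91 to 1.13. Its 3 kept probe sets, from 12 in all, gave 1.66, 1.01 and 0.39. With no filter on dim probe sets the gene's change was 0.28 (adjusted p = 0.072).

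SLC6A15, with the array values given above, rose by 0.67 ± 0.11 (adjusted p = 0.012), but the trans-fat/HFCS arrays carried most of this. Without them the change was 0.27 (adjusted p = 0.46), and with no filter on dim probe sets it was 0.08 (adjusted p = 0.50). Of its 3 kept probe sets, from 17 in all, 1 passed at 1.50 while the others gave 0.57 and -0.07. The lysosomal glutamine exporter SLC38A7 read 4.64 and 4.87 in control, 4.61 and 4.73 with MSG, 5.26 and 5.33 with trans-fat/HFCS, and 5.35 and 5.17 on the combined diet. The groups did not overlap, and the gene rose by 0.56 ± 0.12, or 1.48-fold (adjusted p = 0.026). Without the trans-fat/HFCS arrays its change was as large, 0.58, with an adjusted p of 0.16, and 8 of its 10 probe sets were higher.

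SLC1A4 fell by 0.60 ± 0.12, or 1.52-fold (adjusted p = 0.022), and by 0.50 without the trans-fat/HFCS arrays (adjusted p = 0.18). Of its 7 probe sets 6 were lower, but the brightest alone gave -0.18 (adjusted p = 0.47), and the median of all gave -0.56 (adjusted p = 0.13). SLC38A7 likewise stood at 0.34 (adjusted p = 0.23) by its brightest probe set and at 0.58 (adjusted p = 0.29) by the median. SLC3A1 fell by 0.61 ± 0.16 (adjusted p = 0.048), and by 0.38 without those arrays (adjusted p = 0.43). Of its 3 kept probe sets, from 14 in all, 1 at -1.92 held this fall, since the others gave 0.20 and -0.12. With no filter on dim probe sets the gene stood at -0.14 (adjusted p = 0.26). Leaving out 1 array at a time, SLC1A4 passed in 2 of 8 fits, without trans-fat/HFCS 1 (adjusted p = 0.028) or combined 2 (adjusted p = 0.041), at -0.69 to -0.52 over all 8. SLC38A7 passed in 1, without combined 2 (adjusted p = 0.038), at 0.50 to 0.62, and SLC3A1 in 0, at -0.74 to -0.48. Without control 2, SLC6A15 had an adjusted p of 0.054.

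**Figure D4:**
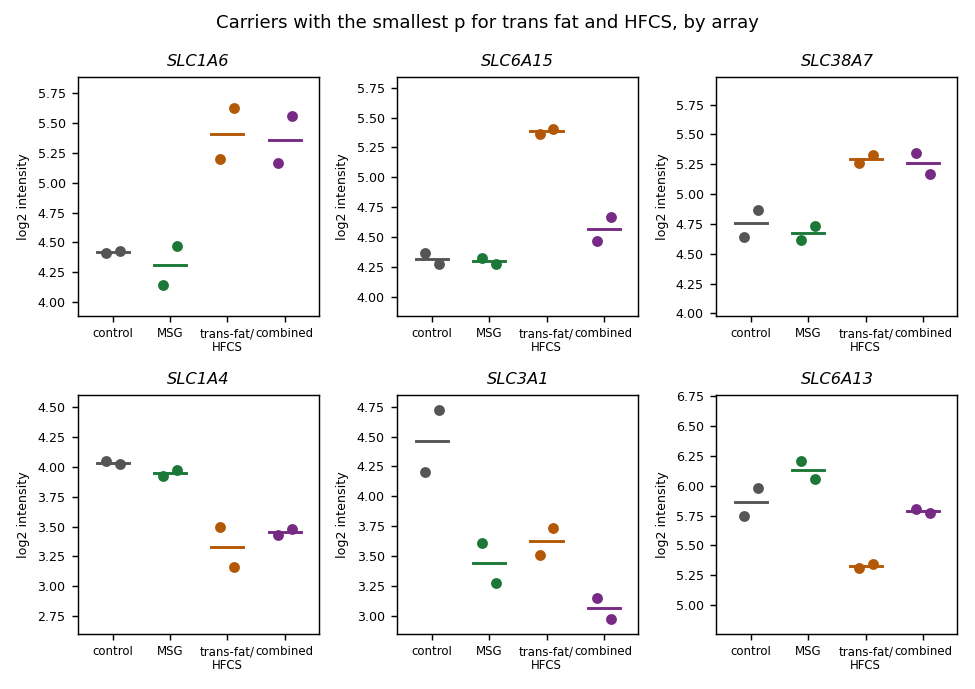
Log2 intensity (vertical axis, each panel spanning 2 log2 units) of 6 carriers by diet, with 1 point per array and the mean of 2 arrays as a line. SLC1A6, SLC38A7, SLC1A4 and SLC6A15 divide the 4 arrays with trans fat and HFCS from the 4 without. SLC6A15 is high on the trans-fat/HFCS arrays at 5.37 and 5.41 and much less so on the combined arrays.

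Other carriers with a small p did not pass. SLC6A13 stood at -0.44 ± 0.12 (adjusted p = 0.056), SLC1A5 at -0.61 ± 0.18 (adjusted p = 0.069), SLC1A3 at -0.49 ± 0.18 (adjusted p = 0.13) and SLC7A4, an SLC7 member, at -0.29 ± 0.13 (adjusted p = 0.19). The SLC1A5 value rested on 1 probe set at -3.97: of its 6 probe sets 3 were higher and 3 lower. Without that probe set their median was 0.09. Without the trans-fat/HFCS arrays, SLC6A13 stood at -0.34 (adjusted p = 0.36) and SLC1A5 at -0.67 (adjusted p = 0.22). With 1 array left out, SLC1A5 passed without combined 1 (-0.77, adjusted p = 0.038) and SLC1A3 without combined 2 (-0.67, adjusted p = 0.034). SLC1A7, a glutamate carrier known from the retina, read 4.06 and 3.48 in control, 3.30 and 3.35 with MSG, 3.16 and 3.40 with trans-fat/HFCS, and 3.00 and 3.73 on the combined diet, with overlapping diets. Over its 6 probe sets the change was -0.23 ± 0.19 (adjusted p = 0.51), whereas its brightest probe set alone gave -1.41 (adjusted p = 0.018). Upward, SLC6A17, a vesicular carrier of neutral amino acids, stood at 0.56 ± 0.26 (adjusted p = 0.23) and SLC1A2 at 0.20 ± 0.11 (adjusted p = 0.31). The F test for any difference among the 4 diets was passed by 3 of 59 genes, SLC6A15 (adjusted p = 0.019), SLC1A6 (adjusted p = 0.036) and SLC3A1 (adjusted p = 0.037), beside 3.2% of all genes. Leaving out any of the control, MSG or trans-fat/HFCS arrays left 0 of these calls. In SLC3A1 the highest and lowest diets, control and combined, differed by 1.40.

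Single probe sets moved further than the genes they belong to. With trans fat and HFCS, 11 of 425 passed (2.59%, beside 2.71% of all probe sets), 4 higher and 7 lower, each in a different gene. The largest was probe set 8037843 of SLC1A5, at 9.87 and 9.87 in control, 10.33 and 10.26 with MSG, 5.07 and 5.04 with trans-fat/HFCS, and 7.55 and 6.80 on the combined diet. It fell by 3.97 on the log2 scale (adjusted p = 0.0023), while the other 5 probe sets of the gene differed by -0.87 to 0.86. The combined diet lay between trans-fat/HFCS and the diets without trans fat, and a sequence difference between cats under the probes was not tested. The other 6 that fell were 1 probe set each of SLC7A9 (-2.90), SLC6A13 (-2.34), the serotonin carrier SLC6A4 (-2.10), SLC38A2 (-1.54), the dopamine carrier SLC6A3 (-1.09) and SLC6A12 (-1.06). The 4 that rose were 1 each of the glycine carrier SLC6A5 (2.41), SLC43A1 (2.37), SLC1A6 (1.66) and SLC6A15 (1.50). In the comparison of combined with MSG, without the trans-fat/HFCS arrays, all 11 kept their direction, from -3.12 for SLC1A5 to 3.24 for SLC43A1, and 0 passed, the smallest adjusted p being 0.057 for SLC1A5. Of these 11 genes only SLC1A6 and SLC6A15 passed as whole genes. The test for any difference among diets was passed by 4 probe sets (0.941%, beside 1.07% of all), those of SLC1A5, SLC6A5, SLC6A4 and SLC6A15.

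**Figure D5:**
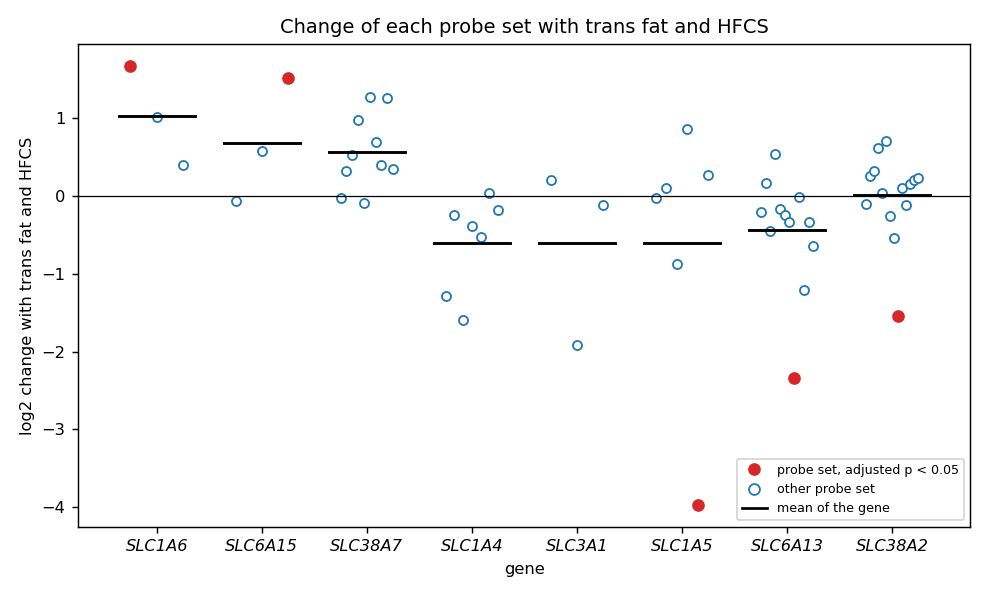
Log2 change of each kept probe set with trans fat and HFCS (vertical axis) for 8 carrier genes (horizontal axis). Filled points passed at an adjusted p under 0.05, open points did not, and black lines are the mean of the gene. In SLC1A5 a single probe set at -3.97 stands far below the rest, and in SLC38A2 a probe set at -1.54 lies below a gene mean of 0.00.

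Genes of 4 related lists were read in the same fit. Among 29 targets of ATF4, the regulator that answers amino acid shortage, 0 passed for MSG, the interaction or trans fat and HFCS. For MSG, 5 of the 29 had an unadjusted p under 0.05, where 7.91% of all genes did. The stress-induced mTORC1 inhibitor DDIT4 read 3.27 and 3.47 in control, 3.93 and 4.09 with MSG, 3.24 and 3.14 with trans-fat/HFCS, and 3.40 and 3.71 on the combined diet. The MSG arrays lay above the other 6, while the combined arrays overlapped control. Its MSG main effect was 0.50 ± 0.13 (adjusted p = 0.27), that of the stress factor DDIT3 was 0.53 (adjusted p = 0.43) and that of the ATF4 relative ATF5 was 0.30 (adjusted p = 0.55). The median of the list was -0.04 for MSG, with 12 higher and 17 lower.

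Of the glutamate and glutamine enzymes, 22 of 25 were measured and 0 passed for MSG or the interaction. Glutamine synthetase, GLUL, read 7.95 and 7.66 in control, 7.15 and 7.18 with MSG, 7.37 and 7.66 with trans-fat/HFCS, and 7.35 and 7.12 on the combined diet, all 4 arrays with MSG below the 4 without (-0.46 ± 0.13, adjusted p = 0.39). GAD2, which makes GABA from glutamate, stood at -0.61 (adjusted p = 0.24) and GCLC, which joins glutamate to cysteine for glutathione, at 0.38 (adjusted p = 0.42). With trans fat and HFCS, GAD1 rose by 0.88 (adjusted p = 0.01), GAD2 rose by 0.83 (adjusted p = 0.015) and GCLC fell by 0.52 (adjusted p = 0.031). Without the trans-fat/HFCS arrays GAD1 rose by 1.22 (adjusted p = 0.036), while GAD2 stood at 0.62 (adjusted p = 0.18) and GCLC at -0.49 (adjusted p = 0.21). GAD2 was highest on the trans-fat/HFCS arrays, at 4.88 and 5.24, as SLC6A15 was.

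Of 34 listed partners and amino acid sensors 24 were measured, and 0 passed for MSG or the interaction. The sestrin SESN3, from a family of mTORC1 inhibitors, fell with trans fat and HFCS by 0.51 (adjusted p = 0.048), and stood at -0.74 without the trans-fat/HFCS arrays (adjusted p = 0.11). The ubiquitin ligase NEDD4L, at 0.42 (adjusted p = 0.49), the collectrin gene TMEM27, at -0.38 (adjusted p = 0.53), and the mTORC1 activator RRAGB, at 0.30 (adjusted p = 0.54), had the smallest p for MSG. For the interaction the kinase SGK1 stood at -1.14 ± 0.23 (adjusted p = 0.15). Of 26 amino acid and peptide carriers outside the 7 families 24 were measured, and 1 passed for MSG, SLC15A3, a lysosomal carrier of histidine and short peptides. It read 7.03 and 7.12 in control, 4.99 and 5.37 with MSG, 7.01 and 6.84 with trans-fat/HFCS, and 6.87 and 7.08 on the combined diet. The MSG arrays alone were low, and the main effect was -0.92 ± 0.13 (adjusted p = 0.026). In the same list SLC16A10, a carrier of aromatic amino acids, stood at -0.35 (adjusted p = 0.47) and SLC22A5, the carnitine carrier, at -0.31 (adjusted p = 0.63) for MSG. With trans fat and HFCS the mitochondrial carrier of basic amino acids SLC25A29 rose by 0.55 (adjusted p = 0.038), and stood at 0.66 without the trans-fat/HFCS arrays (adjusted p = 0.13). SLC15A3 passed as well, at 0.82 (adjusted p = 0.01), and at 1.79 without the trans-fat/HFCS arrays (adjusted p = 0.0082). However, its trans-fat/HFCS arrays were not above control, and the low arrays behind both values are those with MSG on chow.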

How the data were processed

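Liver RNA was hybridised as biotin-labelled DNA, made from 250 ng of total RNA per the labels' protocols, to 8 human HuGene arrays. The deposited values are linear intensities, 1 per probe set, which the authors had normalized. The submitters' processing notes name GCRMA, Partek and hg19, a human build, and versions are not given in the sources used here. Intensities were log2 transformed. Gene names came from the platform annotation, and 57 of the 59 members also have a cat gene of that name (assembly F.catus_Fca126_mat1.0).

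Probe sets with a mean above the median of all (intensity 5.38) were kept, 128550 in number, and those with 1 gene were averaged per gene. Each gene was fitted with a mean for each of 4 diets in limma 3.58.1 (R 4.3.3) with empirical Bayes moderation (4 residual and 5.01 prior degrees of freedom). Tests were two-sided, with Benjamini-Hochberg adjustment over all genes or all kept probe sets. Errors are moderated standard errors, n is 2 arrays per diet, and precision is limited by that number. The fit was tested on simulated data.

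The text names every member that passed, those of smallest p (6 per direction for main effects, 3 otherwise), a list of carriers of glutamate, glutamine and their exchange partners whatever their values, and the member with the brightest probe set of each family. Other genes named, such as SLC7A9, SLC1A7, SLC43A3, SLC7A6OS and some probe sets, were chosen after their values were seen. Members and gene lists were chosen with earlier results of these data known. Replicate numbers do not pair arrays: correlations across genes of the difference between replicates 1 and 2 were -0.06 to 0.04 over 6 pairs of diets. Alternatives varied the filter, the gene summary, the normalization, the model and the arrays included.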

Additional observations from a re-analysis of the deposited data

Results flagged for a closer look

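One gene of the related lists, the lysosomal peptide carrier SLC15A3, responded to MSG differently on the 2 base diets by the test of the difference itself. On chow its log2 change with MSG was -1.89 (adjusted p = 0.0042), and the interaction was 1.94 ± 0.27 (limma, adjusted p = 0.037), with all 4 arrays of the trans-fat/HFCS and combined diets between 6.84 and 7.08. None of the 59 members had an interaction past the threshold.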

How the results depend on the processing

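Counts of 0 passing genes for MSG on chow, MSG on the trans-fat/HFCS base and the interaction stayed at 0 under all 15 alternatives, as did the interaction's count of probe sets under all 13. For the MSG main effect the count of genes was 0 to 1 when 1 array was left out, the 1 being SLC7A6 without the second combined array, and the count of probe sets was 1 with a trended, robust prior. For trans fat and HFCS, beside the 5 genes of the report, 3 passed with no filter on dim probe sets (SLC1A4, SLC38A7, SLC6A13), 3 with the median of a gene's probe sets (SLC1A6, SLC6A15, SLC6A3) and 1 to 5 when 1 array was left out. In the comparison of combined with MSG, chosen after seeing the data, 0 of the 59 genes and 0 of their probe sets passed. The 75th percentile filter gave 7, the same 5 with SLC1A5 and SLC1A7, and the trended, robust prior gave 7, the same 5 with SLC1A5 and SLC6A13. The brightest probe set gave 7 without SLC1A4 and SLC38A7 and with SLC1A5, SLC1A7, SLC6A5 and SLC7A6OS. Quantile normalization gave 5 and an additive model 4. For any difference among diets, beside 3 genes, 1 passed with no filter (SLC6A13, not among the 3) and 0 to 2 when 1 array was left out. The 75th percentile filter gave 3 (SLC1A4, SLC1A6, SLC1A7) and the brightest probe set 2 (SLC1A5, SLC6A5). Of probe sets, 3 to 8 passed for trans fat and HFCS when 1 array was left out, beside 11, and 0 to 2 among diets, or 7 with the trended prior, beside 4. With the replicate block, in which arrays share only a number, 4 genes passed for trans fat and HFCS, with SLC3A1 no longer among them (adjusted p = 0.074), and 1 probe set passed among diets. None of the 5 genes called for trans fat and HFCS changed sign. Medians over the 59 genes lay on either side of 0, at -0.00 to 0.04 for MSG and -0.04 to 0.10 for trans fat and HFCS, as did SLC1A3 for MSG, at -0.28 to 0.10 when 1 array was left out. A lone array was assumed to vary like the other diets, and where a count moved the cause was not tested.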
